A study of Arabidopsis thaliana with 30 samples.

Results

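The aliphatic glucosinolate genes are a set of 10 genes of Arabidopsis thaliana that act in making the methionine-derived glucosinolates. They were listed by their locus codes, with earlier results of these data known. They are the transcription factor genes MYB28 (AT5G61420), MYB29 (AT5G07690) and MYB76 (AT5G07700), the chain elongation genes BCAT4 (AT3G19710), MAM1 (AT5G23010) and MAM3 (AT5G23020), and the core structure genes CYP79F1 (AT1G16410), CYP79F2 (AT1G16400), CYP83A1 (AT4G13770) and UGT74C1 (AT2G31790). The deposited table lists 32548 genes, and all 10 have a row. Of the 21868 genes that passed a filter on low values (at least 10 in at least 3 libraries), 10 were these genes.

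Messenger RNA of 12-day-old seedlings was sequenced in 30 libraries, 3 for each of 10 genotypes. The 9 mutants carry -/- in their labels. Single mutants were gcn5-/- and eaf6-/-, the adaptor mutants ada2b-/- and ada2a-/-, and spc-/-, sdrl-/- and ing1-/-. Double mutants were ada2aspc (ada2a-/-spc-/-) and spcing1 (spc-/-ing1-/-), and the wild type was Col-0. All seedlings were kept on Murashige and Skoog plates under 16 h of light and 8 h of dark at 22 °C, without treatment. The labels name no alleles or lines, so how far each mutation removes its protein cannot be read from them. The enzyme GCN5 acetylates histones together with ADA2 adaptor proteins, and the title of the series concerns complexes built around it.

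Glucosinolates are sulfur- and nitrogen-containing defence compounds of the cabbage order, which the enzyme myrosinase turns into toxic products when tissue is damaged. In the aliphatic branch, methionine loses its amino group, is lengthened by rounds of methylene addition in the plastid, and is then converted through an aldoxime to a glucosylated and sulfated core. The known roles divide the genes. The R2R3-MYB factors MYB28, MYB29 and MYB76 switch on the pathway. MAM1 makes mainly short chains and MAM3 can make long ones. CYP79F1 accepts short- and long-chain substrates while CYP79F2 accepts long-chain ones.

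Several members lie beside a relative. MAM1 (TAIR10.1 chromosome 5, 7703041 to 7706973, plus strand) and MAM3 (chromosome 5, 7718118 to 7721866, plus strand) are 11144 bases apart. CYP79F2 (chromosome 1, 5605044 to 5607498, plus strand) and CYP79F1 (chromosome 1, 5608682 to 5612064, plus strand) are 1183 bases apart, and MYB29 (chromosome 5, 2446669 to 2448584, plus strand) and MYB76 (chromosome 5, 2450027 to 2451807, plus strand) are 1442 bases apart. In each of these 3 pairs the annotation places 0 genes between the neighbours. The longest coding sequences of the pairs were 83.8% identical over the aligned bases for MAM1 and MAM3, 91.4% for CYP79F1 and CYP79F2 and 77.6% for MYB29 and MYB76, with longest identical runs of 30, 100 and 30 bases. How the authors' counting divided reads shared by such copies is not given in the sources used here, so single values of these copies are uncertain. The remaining members stand alone: MYB28 (chromosome 5, 24689069 to 24691187, minus strand), BCAT4 (chromosome 3, 6846969 to 6849582, minus strand), CYP83A1 (chromosome 4, 7990429 to 7992429, minus strand) and UGT74C1 (chromosome 2, 13518199 to 13520364, plus strand). BCAT4 overlaps AT3G19700, and UGT74C1 overlaps AT2G08470 and AT2G31800, on the opposite strand. Whether the counting used strand is not stated, so reads of these overlaps cannot be told apart.

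The 250 bases before the annotated start of CYP79F2 and CYP79F1 are shown because these neighbours moved in opposite directions in gcn5 and eaf6, those of MAM1 because it fell most in gcn5 and ada2b, and those of CYP83A1 because it alone of the 9 members searched held a G-box. The sequences come from RefSeq's TAIR10.1 and are written 5′ to 3′ on the strand of the gene, at chr5:7702791-7703040 for MAM1, chr1:5604794-5605043 for CYP79F2 and chr1:5608432-5608681 for CYP79F1, all on the plus strand, and chr4:7992430-7992679 on the minus strand for CYP83A1. Capitals mark matches to the motifs searched on both strands: the G-box CACGTG, the related CACATG, the AC elements ACCNAAC and ACCNACC, and the TATA motif TATAAA.
MAM1: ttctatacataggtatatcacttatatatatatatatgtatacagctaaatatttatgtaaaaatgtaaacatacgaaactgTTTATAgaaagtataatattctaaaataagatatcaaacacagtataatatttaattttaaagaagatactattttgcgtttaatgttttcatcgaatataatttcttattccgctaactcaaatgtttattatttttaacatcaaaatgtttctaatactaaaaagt
CYP79F2: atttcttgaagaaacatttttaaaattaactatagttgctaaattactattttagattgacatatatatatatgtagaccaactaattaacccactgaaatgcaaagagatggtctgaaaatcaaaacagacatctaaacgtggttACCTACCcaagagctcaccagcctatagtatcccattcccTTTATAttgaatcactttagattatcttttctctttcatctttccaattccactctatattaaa
CYP79F1: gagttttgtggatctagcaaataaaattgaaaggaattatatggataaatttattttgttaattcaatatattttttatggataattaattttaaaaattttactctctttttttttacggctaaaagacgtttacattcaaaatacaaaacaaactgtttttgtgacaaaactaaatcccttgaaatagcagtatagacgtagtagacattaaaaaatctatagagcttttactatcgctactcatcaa
CYP83A1: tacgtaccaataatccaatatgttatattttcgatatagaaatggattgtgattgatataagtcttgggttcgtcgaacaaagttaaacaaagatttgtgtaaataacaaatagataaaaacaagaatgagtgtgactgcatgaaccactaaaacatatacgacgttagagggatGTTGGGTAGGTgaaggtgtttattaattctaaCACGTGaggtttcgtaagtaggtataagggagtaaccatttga
The TATA motif was in 5 of the 9 member windows (MYB28, BCAT4, MAM1, CYP79F2 and UGT74C1) and in 46.1% of 32546 promoters of the same length. The CYP79F1 window held none of the motifs. CACGTG was in 1 member window, that of CYP83A1, and in 5.9% of all promoters, while CACATG was in 0 member windows and in 11.2% of all. ACCNACC was in the CYP79F2 and CYP83A1 windows and in 5.94% of all promoters, and ACCNAAC was in the CYP83A1 window and in 14.2% of all. In the CYP83A1 window the ACCNAAC and ACCNACC matches overlap. These matches describe letters in a window and do not show that a factor binds there.

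Each deposited value is a signal that the authors had already normalised, and column totals lay between 30914000 and 41548748. With values under 1e-9 taken as 0, the 3 libraries shared the same number of genes at 0 in spc (8394), sdrl (8531) and spcing1 (8592). In gcn5, ada2b and ada2aspc the numbers differed between libraries, and in Col-0, ada2a, ing1 and eaf6 only some were the same. How this arose was not tested. Libraries of a genotype may therefore not be independent, as the p-values assume. Nothing in the labels ties the 3 libraries of a genotype to separate cultures, so each p-value reflects library spread that could be technical. In seedlings of many cell types, fewer cells of a type and less RNA per cell cannot be told apart. Transcripts of the mutated genes followed the labels where the gene could be identified: the ADA2A signal was 2.5% of Col-0 in ada2a and 1.09% in ada2aspc, ING1 was 22.5% in ing1 and 20.6% in spcing1, and EAF6 was 14.3% in eaf6. GCN5 was 49.2% of Col-0 in gcn5 and ADA2B was 72.3% in ada2b, so these libraries still held transcript of those genes. The loci behind spc and sdrl were not analysed here. Sums of 5 green-tissue marker genes were 633390 to 668630 in gcn5, 423190 to 535240 in ada2b and 992950 to 1130500 in eaf6. In Col-0 they were 1443900 to 1468900. Of these genes, 5 of 5 were lower in each of the 3 mutants (24.5%, 28.1% and 25.9% of all genes). Marker sums in the other 6 mutants lay between 1233700 and 1448100. Lower there were 3 of 5 in spc and ing1 (19.7% and 18.2% of all genes) and 2 in ada2aspc and spcing1 (22.8% and 23.9%). In ada2a and sdrl 1 was lower, near the 14.5% and 18.9% over all genes. The sums of spc, ing1, sdrl, ada2aspc and spcing1, at most 1403200, did not overlap Col-0. Those of ada2a, which reached 1448100, did. The morning clock gene CCA1 was lower in all 9 mutants (log2 fold changes from -5.97 to -2.27), and the touch-responsive gene TCH4 was higher in 8, by 4.76 to 6.20 in all but gcn5 and ada2b. The part of organ make-up, of time of day and of handling in the results was not tested.

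In Col-0 the signal per kilobase of exon was highest for CYP83A1 at 3313 ± 124 (SD, n = 3) and MAM1 at 2569 ± 214, followed by BCAT4 at 1723 ± 84.2, MYB28 at 1279 ± 71.3, CYP79F1 at 1022 ± 56.8, MAM3 at 1004 ± 86.9 and UGT74C1 at 961 ± 23.9. MYB29 at 327 ± 35.3, CYP79F2 at 304 ± 2.01 and MYB76 at 48.5 ± 3.31 were the lowest 3. MYB28 transcripts were thus the most abundant and MYB76 the least abundant of the regulators. By their SDs, CYP79F1, MAM3 and UGT74C1 were not separated in this order. The annotated exons of CYP79F1 run well past its coding sequence, and per kilobase of longest coding sequence CYP79F1 stood at 2068 ± 115, above MAM3 at 1215 ± 105. All values below are signals per gene, which are not divided by length and are compared between genotypes only.

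**Figure D1:**
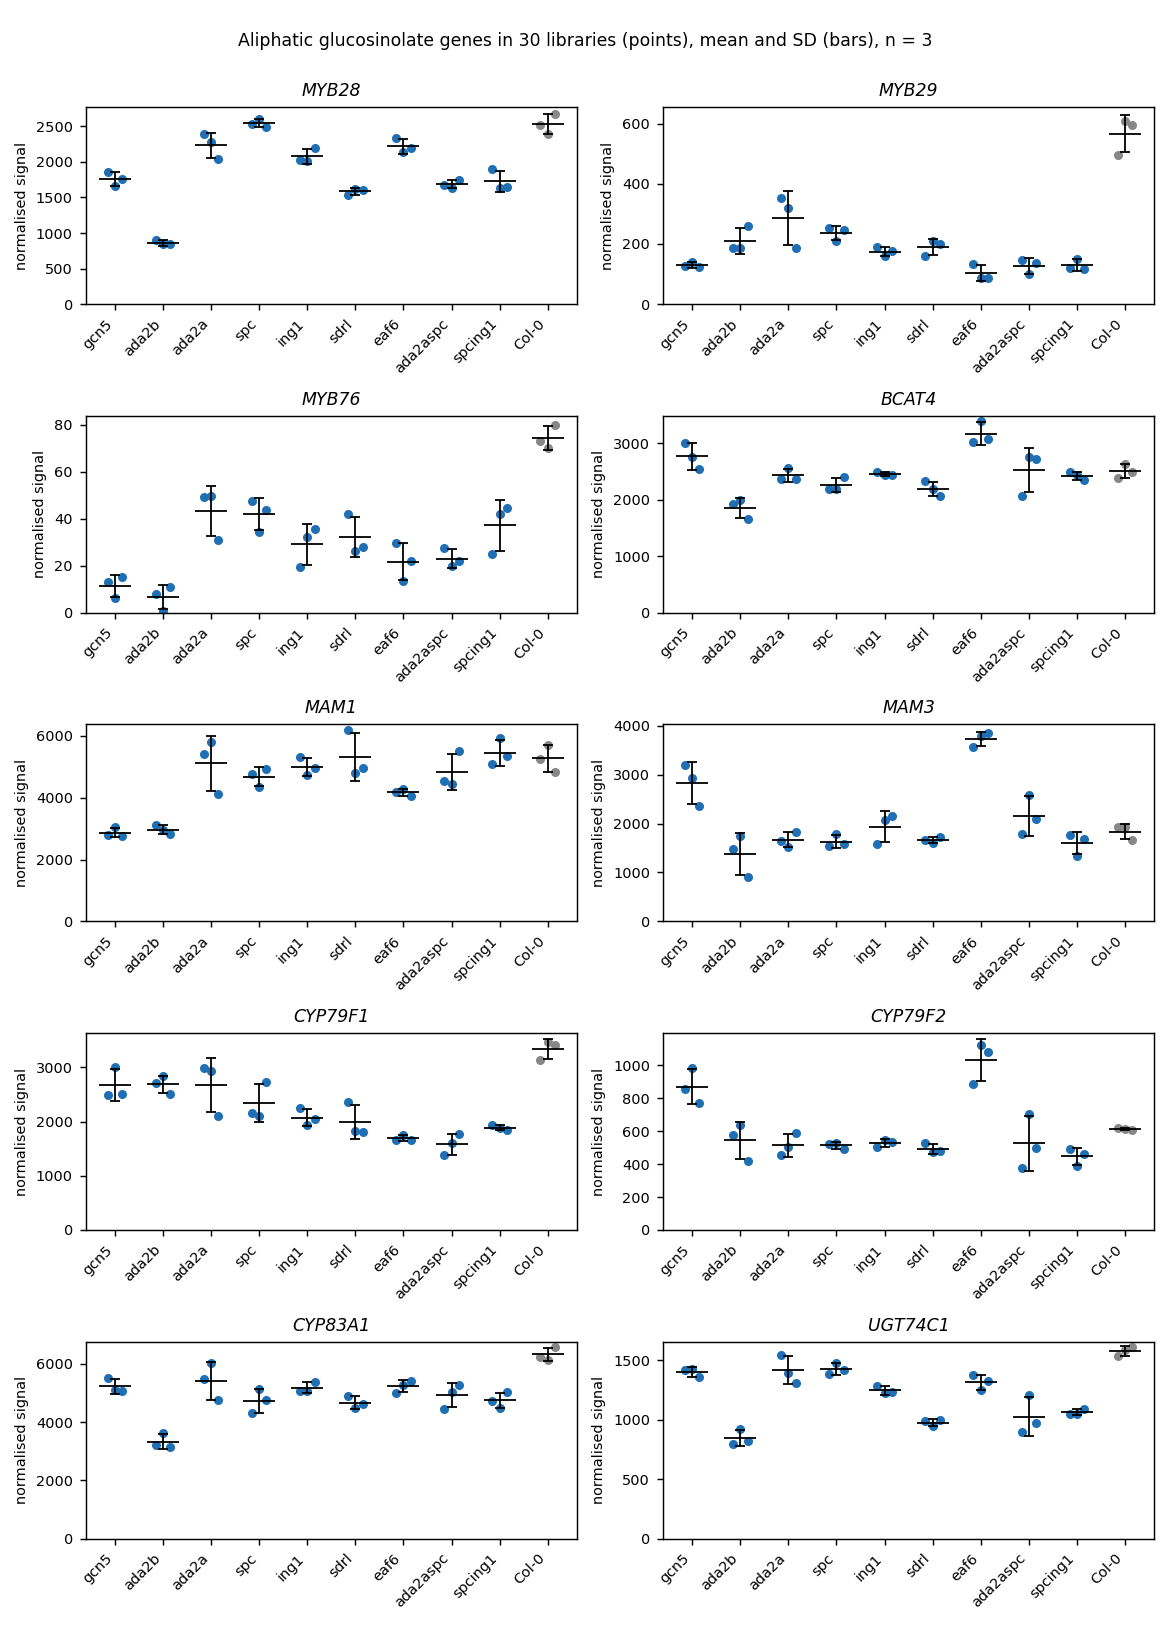
Normalised signal (vertical axis, arbitrary units, starting at 0) of each of the 10 genes in the 9 mutants and Col-0 (horizontal axis). Points are libraries and bars are the mean ± SD of 3 libraries. All mutant points of MYB29, MYB76, CYP79F1 and CYP83A1 lie under the Col-0 points, while MAM3 and CYP79F2 stand above Col-0 in gcn5 and eaf6.

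Over the 9 comparisons with Col-0, which share the Col-0 libraries, the 10 genes gave 90 fold changes, of which 53 were lower, 5 were higher and 32 did not pass (limma, Benjamini-Hochberg adjusted p below 0.05 over all genes tested). Over all genes, 14.5% to 28.1% were lower and 15.1% to 25.2% were higher in a mutant. MYB29, CYP79F1 and CYP83A1 were lower in all 9 mutants, MYB28 in 8, MYB76 and UGT74C1 in 6, MAM1 in 3, and BCAT4, MAM3 and CYP79F2 in 1 each. The share of all genes lower in all 9 mutants, or below Col-0 in every mutant library, is not given here. How unusual such members are therefore cannot be read from these counts. The 5 higher values were MAM3 and CYP79F2 in gcn5 and in eaf6, and BCAT4 in eaf6. A test over the 10 genotypes passed for 10 of 10 members, against 86.5% of all genes tested. Of the 58 calls, 44 held under all the alternative settings tried. After division by column totals, CYP79F1 did not pass in gcn5 (-0.13, adjusted p = 0.372) and ada2b (-0.05, 0.702), nor CYP83A1 in gcn5 (-0.08, 0.433), while MAM3 and CYP79F2 stayed higher in gcn5 and eaf6. Fold changes are log2 values of mutant over Col-0 after adding 1 to each signal, ± SE.

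**Figure D2:**
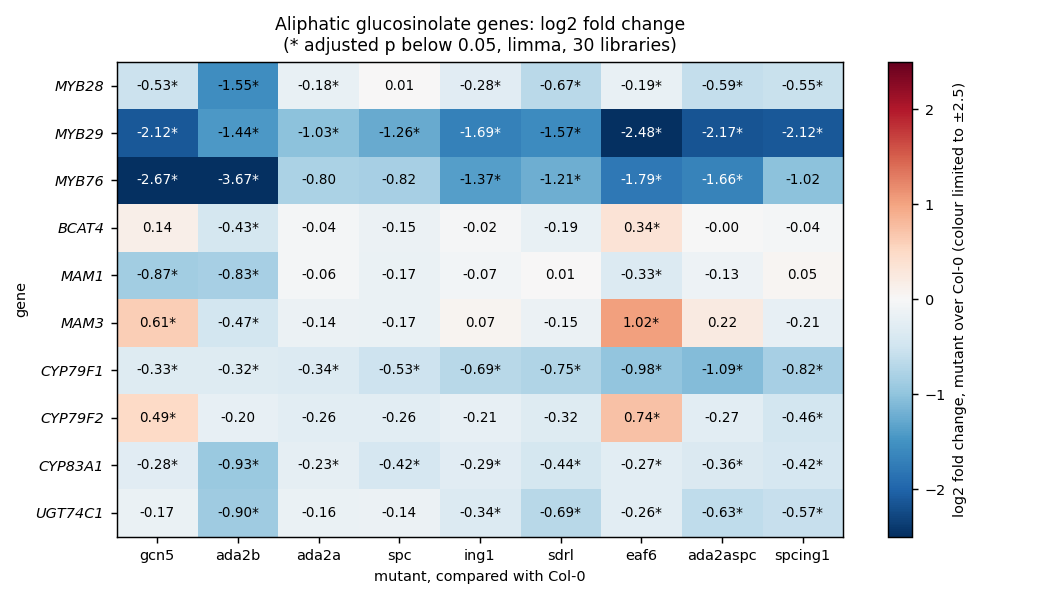
Log2 fold change of each gene (rows) in each mutant against Col-0 (columns), from the fit over 30 libraries, with an asterisk where the adjusted p was below 0.05. The rows of MYB29, CYP79F1 and CYP83A1 are lower throughout, and the 5 higher values with an asterisk stand in gcn5 (MAM3 0.61, CYP79F2 0.49) and eaf6 (MAM3 1.02, CYP79F2 0.74, BCAT4 0.34).

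MYB29, a transcription factor of the pathway that is also known for its response to jasmonate, was lower in every mutant. Its signal was 133, 87.8 and 86.3 in eaf6, 146, 98.6 and 135 in ada2aspc, 127, 140.0 and 122 in gcn5, 122, 151 and 117 in spcing1, and 496, 608 and 595 in Col-0. It was 189, 159 and 176 in ing1, 159.6, 210.0 and 202 in sdrl, 186, 185 and 258 in ada2b, 254, 210.0 and 245 in spc, and 353, 320.4 and 186 in ada2a. All 27 mutant libraries lay below the lowest Col-0 library, and the ranges of neighbouring genotypes in the order of means overlapped except between spcing1 and ing1 and between ada2a and Col-0. The mean was 18.1% of Col-0 in eaf6, the lowest mutant, and 50.5% in ada2a, the highest mutant. Log2 fold changes were -2.48 ± 0.21 in eaf6 (adjusted p = 4.38e-11) and -1.03 ± 0.21 in ada2a (adjusted p = 0.000289), and the other 7 lay between them.

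MYB76, the least abundant of the MYB genes here, had a signal of 8.08, 0.893 and 10.96 in ada2b, 13.1, 6.28 and 15.1 in gcn5, and 73.2, 70.0 and 80.0 in Col-0. It was 29.6, 13.7 and 22.0 in eaf6, 27.4, 19.7 and 22.0 in ada2aspc, 19.4, 32.2 and 35.6 in ing1 and 42.0, 26.4 and 28.1 in sdrl. All 27 mutant libraries were below Col-0, yet only 6 of the 9 comparisons passed in the fit over 30 libraries, where the SE was 0.47. The fold changes that passed were -3.67 ± 0.47 in ada2b (adjusted p = 1.23e-07), -2.67 ± 0.47 in gcn5 (3.07e-05), -1.79 ± 0.47 in eaf6 (0.00215), -1.66 ± 0.47 in ada2aspc (0.00464), -1.37 ± 0.47 in ing1 (0.0228) and -1.21 ± 0.47 in sdrl (0.0434). Values that did not pass were -1.02 in spcing1, -0.82 in spc and -0.80 in ada2a. With only the groups compared these 3 passed (limma, adjusted p = 0.0152, 0.0281 and 0.0498). They also passed with a pseudocount of 16 (0.00393, 0.0181 and 0.029). The ing1 call was lost without Col-0 replicate 3 or ing1 replicate 1 (adjusted p = 0.0636 and 0.109, and 0.000418 to 0.109 over all alternatives). The sdrl call was lost without any of the 3 Col-0 libraries or without sdrl replicate 2 or 3 (adjusted p from 0.0767 to 0.122).

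MYB28, the most abundant regulator per kilobase in Col-0, had 907, 841 and 839 in ada2b, 1532, 1621 and 1603 in sdrl, and 2520, 2397 and 2678 in Col-0. Its ada2b libraries stood far below those of every other genotype, at 34.1% of the Col-0 mean. The log2 fold change was -1.55 ± 0.07 in ada2b (adjusted p = 1.47e-17) and -0.67 ± 0.07 in sdrl. It was -0.59 in ada2aspc, -0.55 in spcing1, -0.53 in gcn5 and -0.28 in ing1, all of which passed. In spc the signal was 2538, 2599 and 2492, inside the Col-0 range, with a value of 0.01 that did not pass. Smaller calls of -0.19 in eaf6 and -0.18 in ada2a depended on single libraries and on the processing. With size factors from median ratios neither passed (limma, adjusted p = 0.0551 in eaf6 and 0.0756 in ada2a). The eaf6 call was also lost after division by column totals (0.0989), and the ada2a call with only the groups compared (0.0835). The eaf6 call was lost without Col-0 replicate 3, eaf6 replicate 2 or eaf6 replicate 3 (adjusted p from 0.0663 to 0.122), and the ada2a call without Col-0 replicate 1 or 3 or ada2a replicate 2 or 3 (adjusted p from 0.0658 to 0.257).

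The 3 regulators did not keep their proportions. The log2 ratio of MYB28 to MYB29 within a library averaged 4.46 ± 0.29 in eaf6 and 3.75 ± 0.17 in gcn5, against 2.16 ± 0.18 in Col-0 (SD, n = 3). In 8 of the 9 mutants every library lay above every Col-0 library, and in ada2b, at 2.05 ± 0.31, the ranges overlapped. The log2 ratio of the neighbours MYB29 to MYB76 was 4.36, 6.62 and 4.44 in ada2b, against 2.75, 3.10 and 2.88 in Col-0. It stood below Col-0 in all libraries of spc, eaf6, ada2aspc and spcing1. Both ratios differed over the genotypes (permutation test by the F statistic, 100000 resamples, two-sided, adjusted p = 2e-05 over 4 ratios, where the smallest unadjusted p possible was 1e-05).

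Among the chain elongation genes, MAM1 and MAM3 moved in opposite directions in gcn5 and eaf6. MAM1 had a signal of 2802, 3056 and 2761 in gcn5, 3117, 2944 and 2821 in ada2b, 4180.0, 4282 and 4066 in eaf6, and 5260.0, 5714 and 4835 in Col-0. MAM3 had 3192, 2939 and 2354 in gcn5, 1480.0, 1745 and 898 in ada2b, 3557, 3784 and 3844 in eaf6, and 1938, 1919 and 1654 in Col-0. In gcn5 MAM1 stood at 54.5% and MAM3 at 154% of Col-0, and libraries of gcn5 and eaf6 did not overlap Col-0 for either gene. For MAM1 the log2 fold changes were -0.87 ± 0.10 in gcn5 (adjusted p = 6.05e-08), -0.83 ± 0.10 in ada2b (7.66e-08) and -0.33 ± 0.10 in eaf6 (0.00831), and the other 6 mutants, between -0.17 and 0.05, did not pass. For MAM3 they were 1.02 ± 0.16 in eaf6 (adjusted p = 5.33e-06), 0.61 ± 0.16 in gcn5 (0.00287) and -0.47 ± 0.16 in ada2b (0.0169), where ada2b and Col-0 libraries overlapped. Leaving out Col-0 replicate 2 ended the MAM1 call in eaf6 (adjusted p = 0.0549, and 0.000752 to 0.0549 over all alternatives). The MAM3 call in ada2b was lost without Col-0 replicate 1 or 2 or ada2b replicate 3 (adjusted p from 0.0546 to 0.278).

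BCAT4, the aminotransferase that takes methionine into the cycle, had 3026, 3399 and 3069 in eaf6, 1923, 1992 and 1659 in ada2b, and 2387, 2630.0 and 2484 in Col-0. Neither mutant overlapped Col-0, with log2 fold changes of 0.34 ± 0.09 in eaf6 (adjusted p = 0.00168) and -0.43 ± 0.09 in ada2b (adjusted p = 0.000119). The 7 other mutants lay between -0.19 in sdrl and 0.14 in gcn5 and did not pass. The eaf6 call held under all 16 alternatives (adjusted p up to 0.0163). After division by column totals, BCAT4 did not pass in ada2b (-0.17, adjusted p = 0.0932, and 6.35e-05 to 0.0932 over all alternatives), was higher in gcn5 (0.34, 0.00196) and was lower in spc (-0.23, 0.0335) and sdrl (-0.27, 0.0172).

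CYP79F1, the cytochrome P450 that makes aldoximes from short and long chains, was lowest in the double mutant ada2aspc and in eaf6. Its signal was 1376, 1606 and 1765 in ada2aspc, 1663, 1761 and 1654 in eaf6, 1936, 1888 and 1851 in spcing1, and 3132, 3479 and 3423 in Col-0. All 27 mutant libraries were below Col-0. Log2 fold changes were -1.09 ± 0.12 in ada2aspc (adjusted p = 9.38e-09), -0.98 ± 0.12 in eaf6 (5.35e-08), -0.82 in spcing1, -0.75 in sdrl, -0.69 in ing1 and -0.53 in spc. The calls in ada2a (-0.34), gcn5 (-0.33) and ada2b (-0.32) were each lost without certain libraries. These were Col-0 replicate 2 or 3 or ada2a replicate 3 for ada2a (adjusted p from 0.0819 to 0.295), Col-0 replicate 2 or 3 or gcn5 replicate 1 or 3 for gcn5 (0.0726 to 0.103), and Col-0 replicate 2 or 3 or ada2b replicate 1 or 3 for ada2b (0.0506 to 0.0926).

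CYP79F2, its long-chain neighbour, did the opposite in gcn5 and eaf6. The signal was 884, 1120.0 and 1081 in eaf6, 856, 979 and 768 in gcn5, and 617, 614 and 609 in Col-0. Every library of both mutants was above Col-0, with log2 fold changes of 0.74 ± 0.16 in eaf6 (adjusted p = 0.000282) and 0.49 ± 0.16 in gcn5 (0.0126). In spcing1 the signal was 489.5, 388 and 462, a change of -0.46 ± 0.16 (adjusted p = 0.0176). The gcn5 call was lost without gcn5 replicate 2 (adjusted p = 0.0734, and 0.000694 to 0.0734 over all alternatives), and the spcing1 call without spcing1 replicate 2 (0.0996, and 0.00419 to 0.0996 over all). The other 6 mutants lay between -0.32 and -0.20 and did not pass. Even so, every library of ada2a, spc, ing1, sdrl and spcing1 lay below the narrow Col-0 range. With only the groups compared, spc and sdrl passed (limma, adjusted p = 0.047 and 0.0203). The ada2aspc value reached -0.51 and passed without ada2aspc replicate 2 (adjusted p = 0.00767, and 0.00767 to 0.819 over all alternatives). The signal of that library, 704, stood above the 373 and 496 of the other ada2aspc libraries.

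**Figure D3:**
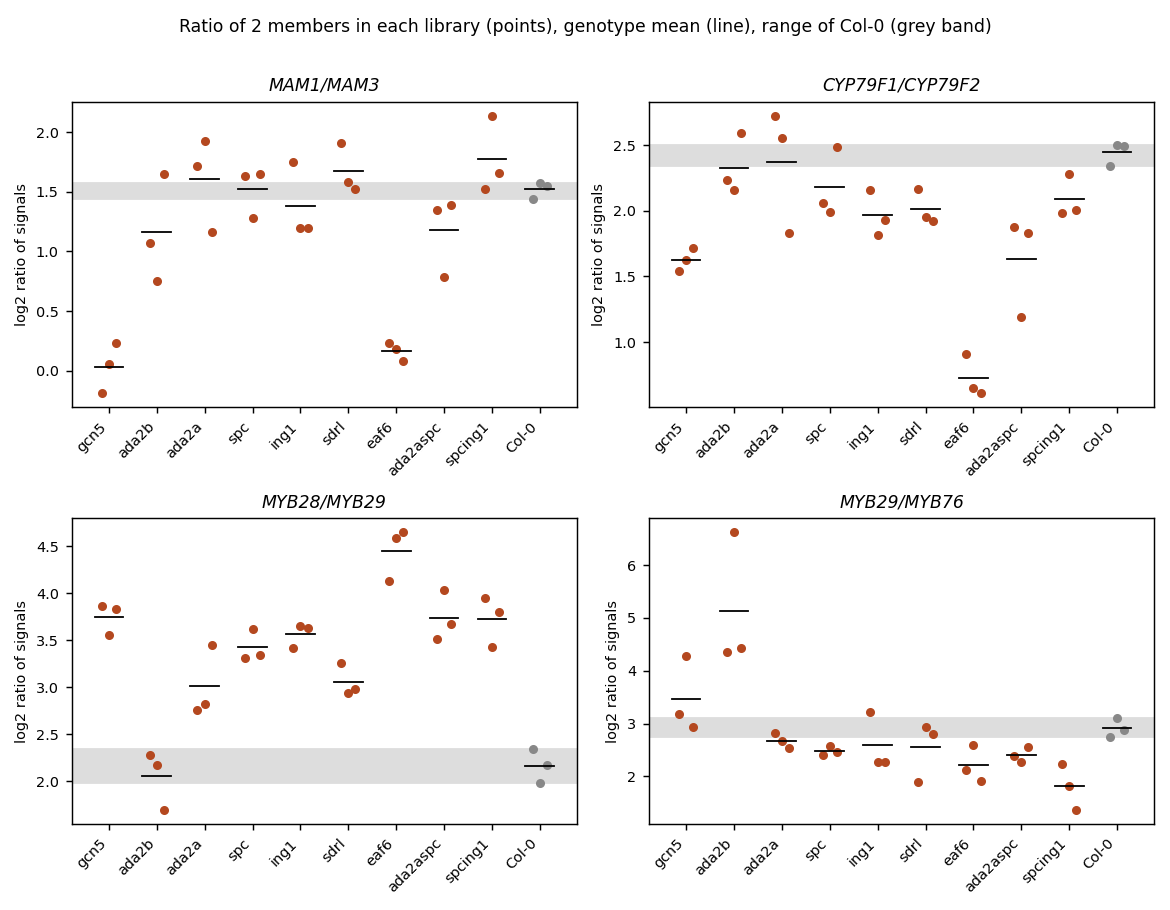
Log2 ratio of the signals of 2 members within a library (vertical axis) in the 9 mutants and Col-0 (horizontal axis), with points for libraries, a line for the mean of 3 and a grey band for the Col-0 range. MAM1/MAM3 falls to means of 0.03 in gcn5 and 0.16 in eaf6, against 1.52 in Col-0, and CYP79F1/CYP79F2 to 0.73 in eaf6, against 2.44 in Col-0.

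A ratio within a library is unchanged where that library was scaled by 1 factor. Whether the authors' normalisation used 1 factor per library is not known, so the ratios may depend on it. Since a ratio is not divided by length, it is compared between genotypes alone. The log2 ratio of MAM1 to MAM3 was -0.19, 0.06 and 0.23 in gcn5 and 0.23, 0.18 and 0.08 in eaf6, against 1.44, 1.57 and 1.55 in Col-0. It was also below Col-0 in every ada2aspc library, at 1.35, 0.79 and 1.39, and overlapped Col-0 in the other 6 mutants. The log2 ratio of CYP79F1 to CYP79F2 was 0.91, 0.65 and 0.61 in eaf6, 1.54, 1.62 and 1.71 in gcn5 and 1.88, 1.19 and 1.83 in ada2aspc, against 2.34, 2.501 and 2.49 in Col-0. It was also below Col-0 in all libraries of ing1, sdrl and spcing1, and overlapped it in ada2b, ada2a and spc. Both ratios differed over the genotypes (permutation test, 100000 resamples, adjusted p = 2e-05 over 4 ratios). Sums of 7 root markers lay between 112850 and 122980 in eaf6 and between 75651 and 105320 in gcn5, against 65700 to 73483 in Col-0. Of these 7 genes, 2 were higher and 0 lower in eaf6 (25.2% and 25.9% of all genes), and 4 were higher and 1 lower in gcn5 (18.2% and 24.5%). In ada2b, where MAM3 was lower, 4 were likewise higher and 1 lower (23.5% and 28.1%). PYK10 made up most of the sum, with means of 109380 in eaf6 and 84950 in gcn5, against 61990 in Col-0. The part of root tissue in the MAM3 and CYP79F2 values was not tested.

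CYP83A1, which oxidises the aldoximes, was lower in all 9 mutants, and all 27 mutant libraries lay below Col-0. Its signal was 3216, 3620.0 and 3151 in ada2b, 4910.0, 4471 and 4614 in sdrl, and 6239, 6141 and 6591 in Col-0. The fall was deepest in ada2b, at -0.93 ± 0.08 (adjusted p = 3.44e-11), and lay between -0.44 in sdrl and -0.23 in ada2a elsewhere. The ada2a call was lost without Col-0 replicate 3 or ada2a replicate 3 (adjusted p = 0.102 and 0.221, and 0.00305 to 0.221 over all alternatives).

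UGT74C1, a glucosyltransferase assigned to the aliphatic branch, had 799, 922 and 821 in ada2b, 989, 944 and 996 in sdrl, and 1534, 1587 and 1610 in Col-0. The libraries of 8 mutants lay below those of Col-0, and in ada2a, with 1544, 1396 and 1313, they overlapped. Log2 fold changes that passed were -0.90 ± 0.08 in ada2b (adjusted p = 1.22e-10), -0.69 in sdrl, -0.63 in ada2aspc, -0.57 in spcing1, -0.34 in ing1 and -0.26 in eaf6. In gcn5, ada2a and spc the values of -0.17, -0.16 and -0.14 did not pass.

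Read by mutant, ada2b had 9 of 10 members lower, against 28.1% of all genes tested, and 0 higher, against 23.5% of all. After division by column totals, 6 members were lower in ada2b and 7 in sdrl. The median member change in ada2b was -0.86, where that of all genes was 0.01. The gcn5 mutant had 6 members lower (24.5% of all genes) and 2 higher (18.2%), with a median of -0.30, against -0.02 over all genes. In eaf6 all 10 members passed, 7 lower (25.9% of all genes) and 3 higher (25.2%), with a median of -0.27, against 0.01 over all genes. With 6 members lower and 0 higher stood ing1 (18.2% and 17.5% of all genes), sdrl (18.9% and 17.0%), ada2aspc (22.8% and 21.7%) and spcing1 (23.9% and 20.9%). Member medians were -0.29 in ing1, -0.56 in sdrl, -0.48 in ada2aspc and -0.51 in spcing1, and medians over all genes lay between -0.05 and -0.02 in these 4. The counts were smaller in ada2a, with 4 lower (14.5% of all genes) and 0 higher (15.1%), and spc, with 3 lower (19.7%) and 0 higher (20.3%). Their member medians were -0.21 in ada2a and -0.21 in spc. Out of 10 members, the 2 higher in gcn5, the 3 higher in eaf6 and the 3 lower in spc are near the shares over all genes. The spc count was 6 after division by column totals and 5 when only spc and Col-0 were fitted. The ada2a count fell to 1 without Col-0 replicate 3 or without ada2a replicate 3, and the gcn5 count of higher members to 1 without gcn5 replicate 2.

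The 3 regulators together were lower in 6 mutants: gcn5, ada2b, ing1, sdrl, eaf6 and ada2aspc. Over all genes, 14.5% to 28.1% were lower and 15.1% to 25.2% higher in a mutant. The calls of MYB76 in ing1 and sdrl and of MYB28 in eaf6 were lost under 3, 8 and 6 of 16 alternatives. Of the chain elongation genes, 3 of 3 were lower in ada2b, 1 was lower and 1 higher in gcn5, 1 was lower and 2 higher in eaf6, and 0 passed in the other 6 mutants. Of the 4 core structure genes, 4 were lower in spcing1, 3 in ada2b, ing1, sdrl, eaf6 and ada2aspc, and 2 in gcn5, ada2a and spc, while CYP79F2 was higher in gcn5 and eaf6. With 3 or 4 genes in a group, counts of 1 or 2 are too few to set apart from the shares over all genes.

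The mutants of related subunits were also compared directly. ADA2A and ADA2B encode alternative adaptors of the GCN5 acetyltransferase. In ada2b against gcn5, 6 members were lower (22.6% of all genes) and 1 higher (19.6%). MYB28 differed by -1.02 ± 0.07 (adjusted p = 1.33e-12), with means of 862 ± 38.6 in ada2b and 1756 ± 101 in gcn5 (SD, n = 3). MAM3 differed by -1.08, UGT74C1 by -0.73, CYP79F2 by -0.69, CYP83A1 by -0.65 and BCAT4 by -0.57. MYB29 was higher in ada2b by 0.67 ± 0.21 (adjusted p = 0.00947), a call lost without ada2b replicate 3 (0.0719, and 0.00441 to 0.0719 over all alternatives). MAM1 and CYP79F1 differed by 0.04 ± 0.10 and 0.01 ± 0.12 and did not pass.

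In ada2a against ada2b, 6 members were higher (33.5% of all genes) and 0 lower (30.2%): MYB76 by 2.88 ± 0.47, MYB28 by 1.37 ± 0.07, MAM1 by 0.77, UGT74C1 by 0.74, CYP83A1 by 0.70 and BCAT4 by 0.39. After division by column totals, BCAT4 did not pass (0.05, adjusted p = 0.634), and CYP79F1 (-0.36, 0.00581) and CYP79F2 (-0.41, 0.0249) were lower. In ada2a against gcn5, 4 of the 10 members were higher (28.6% of all genes) and 2 lower (23.4%), counts near the shares over all genes. The regulators MYB76 (1.87 ± 0.47), MYB29 (1.09 ± 0.21) and MYB28 (0.35 ± 0.07) and MAM1 (0.82 ± 0.10) were higher in ada2a, and MAM3 (-0.75 ± 0.16) and CYP79F2 (-0.75 ± 0.16) were lower. When values were divided by column totals, 6 members were lower in this comparison, MYB28 did not pass (0.07, adjusted p = 0.434), and CYP83A1 and UGT74C1 turned to -0.23 and -0.26, where the median of all genes was -0.28.

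Each double mutant was set against its single mutants. In ada2aspc against ada2a, 4 members were lower (7.93% of all genes) and 0 higher (6.77%): MYB29 by -1.14 ± 0.21, CYP79F1 by -0.75 ± 0.12, UGT74C1 by -0.47 ± 0.08 and MYB28 by -0.40 ± 0.07. MYB29 averaged 127 ± 25.1 in ada2aspc and 286 ± 88.4 in ada2a (SD, n = 3). In ada2aspc against spc, 4 members were lower (7.02% of all genes) and 0 higher (4.89%): MYB29 by -0.91, MYB28 by -0.59, CYP79F1 by -0.56 and UGT74C1 by -0.49. These were the same 4 genes in both comparisons, which share the ada2aspc libraries. In spcing1 against spc, 3 members were lower (3.45% of all genes) and 0 higher (3.61%): MYB29 by -0.86, MYB28 by -0.56 and UGT74C1 by -0.43. In spcing1 against ing1, 1 member, MYB28, was lower by -0.27 ± 0.07 (1.04% of all genes were lower and 1.78% higher). That call was lost without ing1 replicate 2 or 3 or spcing1 replicate 2 or 3 (adjusted p from 0.0616 to 0.178).

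The non-additive effect is the double mutant minus both single mutants plus Col-0 on the log2 scale. In ada2aspc it passed for 2 members in the lower direction (10.8% of all genes) and 0 in the higher (7.76%). MYB28 was 0.41 lower than the sum of the single effects (-0.41 ± 0.10, adjusted p = 0.00266), with means of 1684 ± 57.1 in ada2aspc, 2234 ± 176 in ada2a, 2543 ± 53.8 in spc and 2531 ± 141 in Col-0 (SD, n = 3). UGT74C1 gave -0.33 ± 0.11 (adjusted p = 0.0409). In spcing1 it passed for 1 member in each direction (10.7% of all genes lower and 7.95% higher), MYB28 at -0.28 ± 0.10 (adjusted p = 0.0466) and MYB29 at 0.83 ± 0.29 (0.046). The positive MYB29 value means that the double mutant, with a mean of 129.99 ± 18.45, against 237 ± 23.5 in spc and 175 ± 14.9 in ing1 (SD, n = 3), departed from Col-0 by less than both single effects added. The UGT74C1 call was lost without any of 9 of the 12 libraries (adjusted p from 0.0519 to 0.147). Likewise the MYB28 call in spcing1 was lost without any of 9 (0.0539 to 0.128) and the MYB29 call without any of 10 (0.0516 to 0.115).

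Across the 10 genotype means of log2 signal, chosen pairs of members are given as descriptions over points that share the normalisation. They are not separate groups, since pairs across them also correlated. Such r were 0.823 for CYP83A1 and UGT74C1, 0.822 for MYB28 and MYB76, 0.752 for MYB76 and CYP83A1 and 0.727 for BCAT4 and CYP79F2. Other pairs were negative, as MYB29 and MAM3 (-0.514). MYB28 correlated with UGT74C1 (Pearson's r 0.874, Spearman's rho 0.952) and CYP83A1 (r 0.873, rho 0.636). MYB29 correlated with CYP79F1 (r 0.797), which dropped to 0.557 without eaf6 and Col-0. MYB76 correlated with MAM1 (r 0.881), which dropped to 0.558 without gcn5 and ada2b. BCAT4 correlated with MAM3 (r 0.916, and 0.835 without eaf6 and ada2b), while MAM3 with CYP79F2 (r 0.888) rested on gcn5 and eaf6, since r was 0.169 without them. The neighbours MAM1 and MAM3 had r -0.226, and -0.832 without ada2b and gcn5. CYP79F1 and CYP79F2 had r 0.022, and -0.15 without ada2aspc and Col-0.

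The 10 other genes most like the mean profile of the 7 enzyme members over the 30 libraries were led by BAT5 (AT4G12030, r 0.917), the plastid transporter of the chain elongation acids, and IGMT5 (AT1G76790, r 0.874), an indole glucosinolate methyltransferase. They also held AT5G44400 (r 0.853), MAP65-4 (0.826), CYP96A12 (0.824), AT5G62550 (0.821), AT3G25700 (0.816), AT2G30820 (0.815), AT4G27560 (0.813) and TPR4 (0.808). Of these 10, 4 were also among the 10 most like by genotype means. BAT5 averaged 530 ± 81.5 in ada2b and 571 ± 93.7 in ada2aspc, against 938 ± 27.5 in Col-0 (SD, n = 3), and was at 974 ± 26.4 in eaf6.

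Of 23 other genes of the aliphatic pathway, 19 could be tested. The number lower was 13 in sdrl, ada2aspc and spcing1 (18.9%, 22.8% and 23.9% of all genes), 11 in spc and ing1 (19.7% and 18.2%), 7 in ada2b (28.1%), 6 in ada2a (14.5%), 5 in eaf6 (25.9%) and 2 in gcn5 (24.5%). The number higher was 4 in gcn5, spc and eaf6 (18.2%, 20.3% and 25.2% of all genes), 2 in ada2b and ada2aspc (23.5% and 21.7%), and 1 in ada2a, ing1, sdrl and spcing1 (15.1%, 17.5%, 17.0% and 20.9%). The 5 lower in eaf6 and the 4 higher in gcn5, spc and eaf6, out of 19, are near the share over all genes. In gcn5 the list median was 0.11, in contrast with -0.45 in sdrl. FMO-GS-OX2 (AT1G62540), a flavin monooxygenase that oxidises the methylthio side chain, had 74.7, 52.4 and 76.0 in gcn5 and 21.5, 19.7 and 20.6 in ada2b, against 717, 689.6 and 893 in Col-0. This is 8.83% of Col-0 in gcn5 and 2.68% in ada2b (log2 fold changes -3.49 and -5.14, adjusted p = 1.29e-17 and 9.57e-23), while the other 7 mutants lay between -0.02 and 0.44. GTR1 (AT3G47960), a glucosinolate importer, was higher in 7 mutants, by 0.56 in ada2aspc to 1.31 in spc, and its values in gcn5 (-0.0012) and ada2b (-0.29, adjusted p = 0.0642) did not pass. IPMDH1 (AT5G14200), a dehydrogenase of chain elongation, was higher in gcn5 (0.41) and eaf6 (0.42) and lower in spc, sdrl and spcing1. The sulfotransferase gene SOT18 (AT1G74090) was higher in gcn5 (0.31) and lower in 7 mutants (-0.53 in sdrl to -0.24 in spc), and SOT17 (AT1G18590) stood at 0.29 in gcn5 without passing (adjusted p = 0.102).

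**Figure D4:**
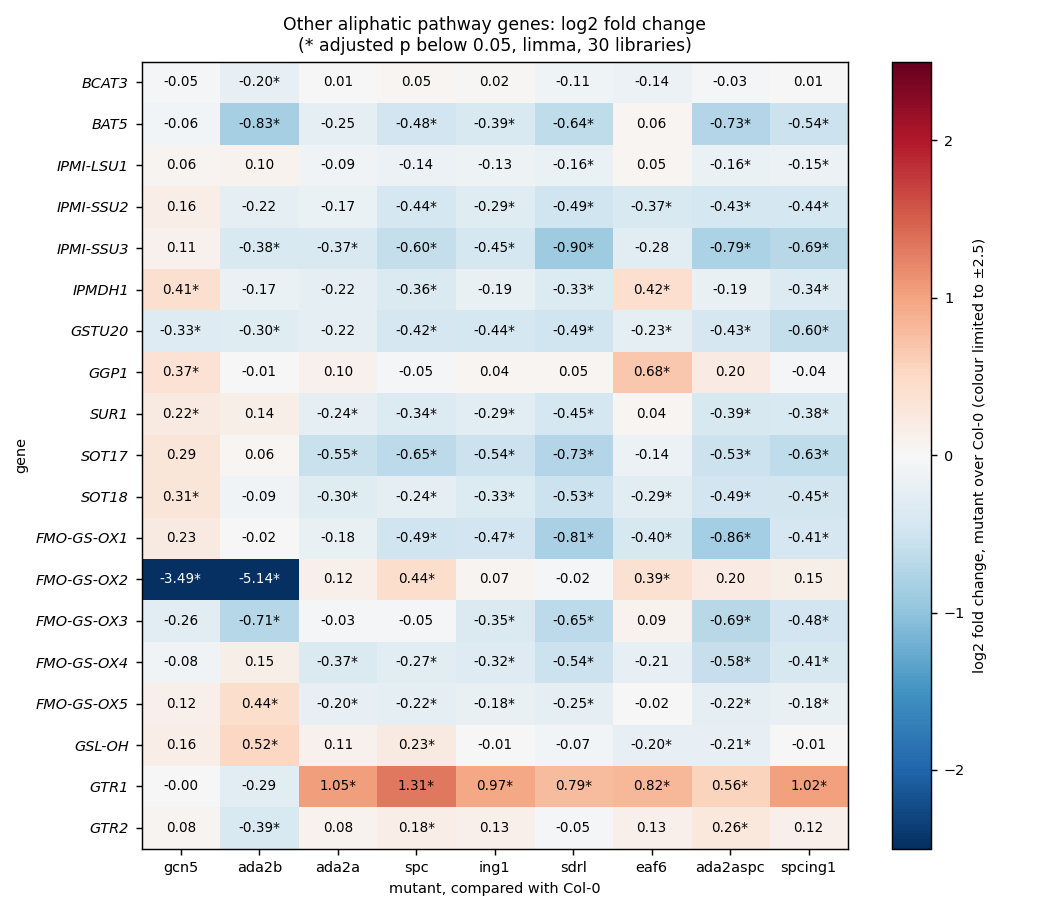
Log2 fold change of the 19 tested other genes of the aliphatic pathway (rows) in each mutant against Col-0 (columns), with an asterisk where the adjusted p was below 0.05 and colours limited to ±2.5. FMO-GS-OX2 is at -3.49 in gcn5 and -5.14 in ada2b, and GTR1 is higher in the other 7 mutants.

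Of 16 indole branch genes, which make the tryptophan-derived glucosinolates, 15 were tested. In eaf6 8 were higher and 1 lower (25.2% and 25.9% of all genes), and in ada2b 8 were higher and 6 lower (23.5% and 28.1%). In gcn5 7 were higher and 5 lower (18.2% and 24.5%), and in ada2aspc 5 were higher and 3 lower (21.7% and 22.8%). The other 5 mutants each had 3 higher, near the 15.1% to 20.9% over all genes. Lower there were 6 in sdrl and spcing1, 5 in spc and ing1 and 3 in ada2a, against 14.5% to 23.9% over all genes. MYB51 (AT1G18570), the indole counterpart of the MYB members, was higher in all 9 mutants, with log2 fold changes from 0.81 in gcn5 to 2.53 in spc. CYP83B1 (AT4G31500), the indole counterpart of CYP83A1, was higher in ada2b (1.05), gcn5 (0.90) and eaf6 (0.36) and lower in ada2a, spc, ing1, sdrl and spcing1. CYP81F2 (AT5G57220), which hydroxylates indole glucosinolates, was higher in all 9 mutants (0.50 in ada2b to 2.09 in ada2a). IGMT1 (AT1G21100) was lower in gcn5 (-1.55) and ada2b (-1.29) and higher in the other 7 (0.30 in sdrl to 0.84 in eaf6). MYB122 (AT1G74080) in sdrl (-0.72) and IGMT2 (AT1G21120) in ada2a (-0.54) did not pass.

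Among 7 partners and regulators, of which 6 were tested, 0 to 3 were higher and 1 to 3 lower in each mutant, against 15.1% to 25.2% and 14.5% to 28.1% of all genes. MYC3 (AT5G46760), a basic helix-loop-helix partner of the MYB factors, was lower in ada2b (-0.40) and higher in 7 mutants (0.20 in ada2a to 0.45 in ada2aspc). SDI1 (AT5G48850), known to repress the aliphatic pathway under sulfur shortage, was higher in eaf6 (1.53) and ada2aspc (0.75) and lower in ada2b (-1.58) and gcn5 (-0.74), and its value in sdrl (0.38) did not pass. SDI2 (AT1G04770) was higher in all mutants but gcn5 and ada2b, by 0.66 to 1.18. SLIM1 (AT1G73730) was higher in ada2b (0.26) and lower in ada2a, ing1, eaf6, ada2aspc and spcing1 (-0.36 in ing1 to -0.23 in ada2a), and IQD1 (AT3G09710) in ada2aspc stood at 0.26 without passing. MYC2 is listed at 0 in all 30 libraries and gives no value.

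Of 11 breakdown genes, 10 were lower and 0 higher in ada2b (28.1% and 23.5% of all genes), and 4 were lower and 2 higher in gcn5 (24.5% and 18.2%). In eaf6 6 were higher and 1 lower (25.2% and 25.9%), and in spc 5 were higher and 2 lower (20.3% and 19.7%). In ada2aspc and spcing1 4 were higher (21.7% and 20.9% of all genes) and 2 lower (22.8% and 23.9%). In ada2a, ing1 and sdrl 2 were higher and 1 to 2 lower, against 15.1% to 17.5% and 14.5% to 18.9% of all genes. The myrosinase genes TGG2 (AT5G25980) and TGG1 (AT5G26000) were at 11.3% and 34.5% of Col-0 in ada2b and at 25.0% and 41.1% in gcn5. TGG2 was higher in the other 7 mutants (0.33 in sdrl to 0.71 in ada2aspc). ESM1 (AT3G14210), an epithiospecifier modifier, was lower in all 9 (-1.92 in gcn5 to -0.53 in spc), and PEN2 (AT2G44490), an atypical myrosinase, was lower in gcn5 and ada2b and higher in 7. NSP2 (AT2G33070, -1.71) and BGLU28 (AT2G44460, -0.62) in sdrl did not pass. Of 12 sulfur assimilation genes, 9 were higher and 0 lower in eaf6 (25.2% and 25.9% of all genes), and 7 were higher and 2 lower in ada2aspc (21.7% and 22.8%). In gcn5 6 were higher and 3 lower (18.2% and 24.5%), in ada2b 5 were higher and 4 lower (23.5% and 28.1%), and in sdrl 5 were higher and 2 lower (17.0% and 18.9%). In ada2a, spc, ing1 and spcing1 0 to 3 were higher and 1 to 2 lower, against 15.1% to 20.9% and 14.5% to 23.9% of all genes. ATPS3 (AT4G14680) was higher in eaf6 (1.43) and ada2aspc (0.90). APK1 (AT2G14750), whose product supplies the sulfate donor for the core, was higher in gcn5 (0.39) and lower in 6 mutants (-0.54 in spcing1 to -0.34 in ada2a). The sulfate transporter genes SULTR2_1 (AT5G10180) and SULTR1_1 (AT4G08620) were lower in ada2b (-1.59 and -2.15) and gcn5 (-1.31 and -0.79), and SULTR1_1 was higher in eaf6 (1.08) and ada2aspc (0.74). SULTR1_1 in spc (0.49) and LSU1 (AT3G49580) in ada2a (0.47) did not pass.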

How the data were processed

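RNA sequencing of seedlings gave 30 libraries, per the labels. The submitters' processing notes name bcl2fastq, HISAT2, edgeR and TAIR10, while versions, counting and annotation are not given in the sources used here. A normalised signal per gene, not a read count, was deposited by the authors: with 1 step per library, between 18.0% and 99.9% of values under 40 lay within 0.05 steps of a whole multiple, so whole reads were not recovered and read depth is unknown. The count test named first in the design was therefore replaced by the one it named for such values, limma 3.58.1 (R 4.3.3). It was fitted to log2(value + 1) over all 30 libraries with genotype as the term and a variance trend, with Benjamini-Hochberg adjustment over the 21868 genes with at least 10 in at least 3 libraries (threshold 0.05). The pseudocount understates changes of low genes such as MYB76. Ratios were tested by permuting genotype labels. Both methods were tested on simulated data. Alternatives were 3 scalings, pseudocounts of 0.5 and 16, no filter, no trend, the compared groups alone, a replicate block, a threshold of 0.01 and leaving out each library. Positions and sequences are from RefSeq's TAIR10.1, which holds each of the 32548 locus codes. The window of 1 member, MAM3, is not reported here. All 10 members are named. From each other list the 4 genes with the smallest p over genotypes and up to 2 with the largest change that did not pass are named. The members and lists were chosen with earlier results of these data known. Figures were made with matplotlib 3.10.9.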

Additional observations from a re-analysis of the deposited data

Results flagged for a closer look

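The non-additive effect, a test of whether the change of a member with 1 mutation differed with the other mutation present, passed for 4 of 20 member values. Over all genes 10.8% were lower and 7.76% higher in ada2aspc, and 10.7% lower and 7.95% higher in spcing1, so the members' share is near that of all genes. The 4 were MYB28 (-0.4126) and UGT74C1 (-0.3315) in ada2aspc, and MYB28 (-0.2757) and MYB29 (0.8271) in spcing1, all on the log2 scale from limma. Only the MYB28 value in ada2aspc kept its call without each of the 12 libraries in turn.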

How the results depend on the processing

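Of 3000 member fold changes recomputed under the alternatives, 2850 kept their direction and side of the threshold, 106 lost and 42 gained a call, and 2 turned. The 2 that turned were CYP83A1 (-0.2325, adjusted p = 0.012) and UGT74C1 (-0.2634, adjusted p = 0.0056) in ada2a against gcn5 after division by column totals, a scaling that moved the median of all genes there to -0.28. It moved that median to 0.27 in ada2b and 0.17 in gcn5 and to between -0.15 and -0.09 in ada2a, spc, ing1, sdrl, ada2aspc and spcing1 against Col-0. Over all genes it gave 3520 lower and 7691 higher in gcn5, against 5360 and 3973 as reported, and 4379 lower and 10099 higher in ada2b, against 6146 and 5142. After it the calls of CYP79F1 (-0.13) and CYP83A1 (-0.08) in gcn5, of BCAT4 (-0.17), MAM3 (-0.21) and CYP79F1 (-0.05) in ada2b and of MYB28 in eaf6 (-0.15) were lost, 6 members were lower in spc, 2 were lower in ada2a against ada2b and 6 in ada2a against gcn5. With only the groups compared, 5 members were lower in spc, 1 was higher in ada2aspc against spc and 0 were lower in spcing1 against ing1. At a threshold of 0.01, 1 member was higher in gcn5, 1 lower in ada2a, and 0 lower in spcing1 against ing1.

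The counts of the non-additive effect changed under the most settings. In ada2aspc, 1 was lower with column totals, the compared groups or a threshold of 0.01, and 1 was higher with the first 2 of these. In spcing1, 0 were lower with column totals, trimmed means, the compared groups or a threshold of 0.01, while the number higher was 0 at a threshold of 0.01, without the filter or without the trend, 2 with column totals, trimmed means or a pseudocount of 16, and 3 with the compared groups. Leaving out each library gave 1 to 2 lower and 0 to 2 higher in ada2aspc, 0 to 1 in each direction in spcing1, 1 to 4 lower in ada2a, 1 to 2 higher in gcn5, 0 to 1 higher in ada2aspc against spc, 0 to 1 higher in ada2b against gcn5 and 0 to 1 lower in spcing1 against ing1.

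No shared deviation of same-numbered libraries was seen. Their deviations correlated between -0.111 and 0.087, and those of differently numbered ones between -0.102 and 0.123. Whether libraries were handled in matched sets cannot be read from this. With the replicate number as a block, 0 members were higher in the non-additive effect of spcing1, and the other 35 counts of members were within 1.5 times. The 4 ratios kept their calls with pseudocounts of 0.5 and 16 and without each replicate number. A test on counts was not run, since the deposited values are not counts. Read depth is unknown, so the counting error of low genes such as MYB76 cannot be given. The cause of these shifts was not tested.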
